A study of Mus musculus with 8 samples.

Results

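UCP1-positive cells of perigonadal white adipose tissue (perigonadal WAT), a beige population, were compared with UCP1-positive cells of brown adipose tissue (BAT). The members were the 2 perigonadal and 3 BAT libraries, 5 of the 8 libraries of the series, and the comparison covered every gene that reached an FPKM of 1 in 2 or more of the 5. This filter kept 8352 of the 22552 genes listed. FPKM is the number of sequenced fragments of a transcript scaled by the length of the transcript and by library size. Both groups came from females aged 6 weeks, labelled as C57B/6 UCP1-TRAP. All were bred at 30 °C, moved to room temperature at weaning at 3 weeks, housed at 4 °C from 4 weeks and sampled 2 weeks later, so no group stayed warm, and the labels of the 2 groups differ in the depot only. The labels do not say whether the libraries came from separate mice or how many mice each library pooled, so p-values measure the spread between these libraries, which may be technical.

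UCP1 is the uncoupling protein of the inner mitochondrial membrane that lets brown and beige adipocytes burn fuel to heat. In translating ribosome affinity purification (TRAP) the ribosomes of a chosen cell type carry a GFP tag, and an antibody against GFP pulls them down with the mRNA they are reading. Brown adipocytes form compact depots before birth, while beige adipocytes arise within white depots, among white adipocytes that store triglyceride, and cold expands them. The visceral perigonadal depot is known as the one that browns least. The marking follows Ucp1, so Ucp1 itself served to choose the cells, and a cell with little Ucp1 in either depot contributes less to the pulldown. In such bulk RNA, fewer cells of a type and less RNA per cell cannot be told apart.

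Depth differed between the groups. The files held no read counts, and the fragments on listed genes, recovered from the confidence bounds, came to 1112288 and 592277 in perigonadal replicates 1 and 2 and to 349370, 380213 and 366832 in BAT replicates 1, 2 and 3. Of the FPKM denominator, 49.4 and 34.1% lay on listed genes in the perigonadal libraries and 22.2 to 23.5% in BAT, so deposited FPKM ran higher in the perigonadal libraries as a whole, by a median of 0.52 on the log2 scale. Values were therefore divided by median-ratio factors (1.64 and 1.054 against 0.8163 to 0.8531), after which the median difference was 0.02. Values below are scaled FPKM, in the order of replicates 1 and 2 for perigonadal WAT and 1, 2 and 3 for BAT, folds are ratios of mean scaled FPKM, and log2 fold changes are perigonadal minus BAT on log2(scaled FPKM + 1), which understates changes of low genes. Adjusted p-values are from limma with Benjamini-Hochberg adjustment over the 8352 genes, and a gene was called at an adjusted p under 0.05. The adipocyte lipid chaperone gene Fabp4 was abundant in both depots, at 3877 and 3878 in perigonadal WAT and at 3571, 3196 and 3069 in BAT. This value does not tell UCP1-positive from other adipocytes. Across tested genes the perigonadal libraries correlated at 0.945 with each other on the log2 scale. The BAT libraries correlated with each other at 0.940 to 0.945 and with the perigonadal libraries at 0.881 to 0.911.

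In perigonadal cells 454 of 8352 genes (5.44%) were called (1845 had an unadjusted p under 0.05), 187 higher (2.24%) and 267 lower (3.20%) than in BAT. Genes of fatty acid synthesis and of white adipocytes were among the largest higher differences. Any part of RNA from white adipocytes of the depot in these higher values was not tested. Short transcripts of the respiratory chain and of ribosomes made up part of the lower side. On FPKM as deposited, 839 genes (10%) were called higher and 66 (0.790%) lower, so the split between directions rests on the scaling. All 187 genes called higher after scaling were also called higher as deposited, but only 64 of the 267 called lower were. The number of calls depended on single libraries. Without perigonadal replicate 1, 28 genes were called higher and 17 lower, of which 27 and 13 were among the original calls, and without perigonadal replicate 2, 98 were called higher and 181 lower. Of the 187 higher genes, 57 could not be tested without replicate 1 and 57 without replicate 2, since they passed the filter only through both. With a perigonadal library left out, that group holds 1 library, the spread comes from the BAT libraries alone, and the lone library is assumed to vary like them. When each of the 5 libraries was left out in turn, 21 higher and 8 lower calls held every time. A lost call is given by its adjusted p and does not mean a smaller fold.

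**Figure D1:**
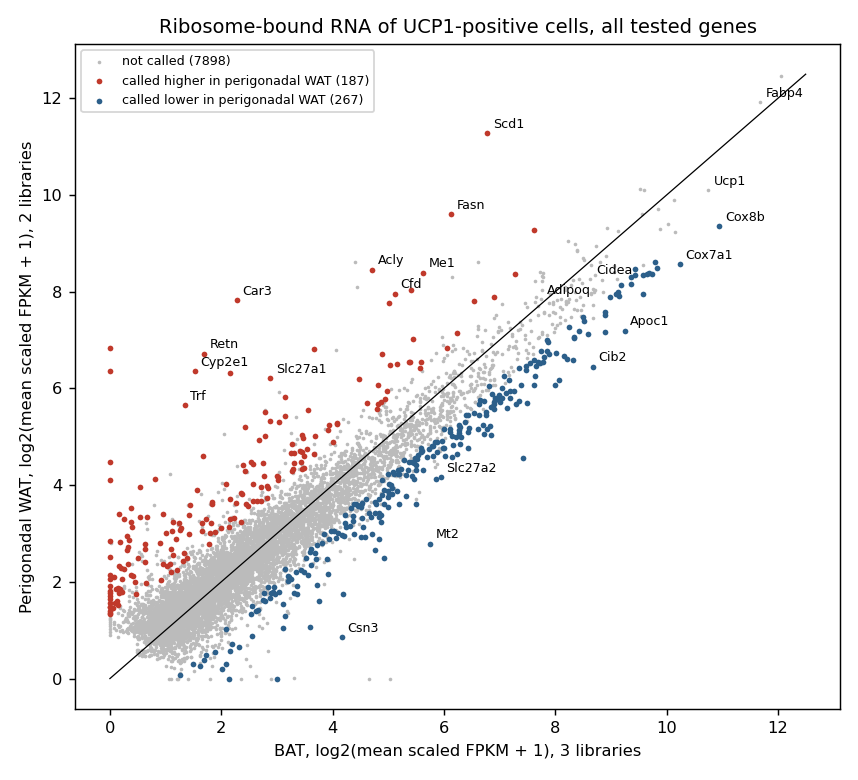
Mean scaled FPKM of each tested gene in perigonadal WAT (y axis, 2 libraries) against BAT (x axis, 3 libraries), both as log2(mean + 1). The 187 genes called higher are red, the 267 called lower are blue, and the line marks equal values. Scd1, Fasn and Acly lie far above the line, while Ucp1 and Fabp4 lie close to it.

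**Figure D2:**
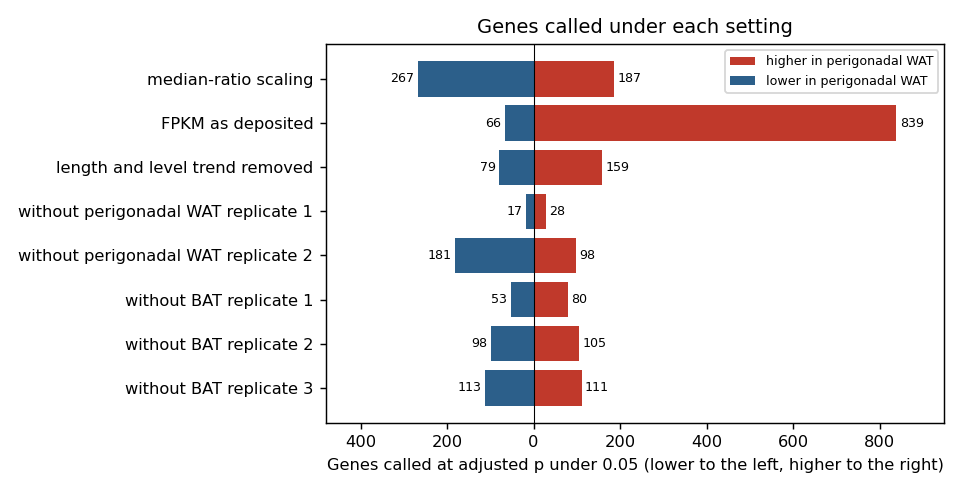
Number of genes called higher (right) and lower (left) in perigonadal WAT at an adjusted p under 0.05, under the scaling used, on deposited FPKM, with the trend on transcript length and level removed, and without each library. The lower calls range from 17 to 267 and the higher calls from 28 to 839.

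The largest coordinated difference was in de novo lipogenesis, the making of fatty acids from citrate. All 18 genes of the list were tested, 15 were called higher, none lower, and their median log2 fold change was 2.19, against 0.02 over all tested genes. In all 18 both perigonadal libraries stood above all 3 BAT libraries. The same held for 17 of 23 tested cholesterol synthesis genes, 15 of 24 pan-adipocyte genes and 4 of 16 triglyceride synthesis genes. In the lower direction, 34 of 37 complex I genes separated. The share over all tested genes was not counted, so separation alone does not single out a list. For Fads2, at 0 in BAT, the separation was fixed by the filter. As deposited all 18 were called higher, and with the length trend removed 14 were. Fads1 and Fads2 had a BAT mean under 1, the other 16 members reached 1 in both depots. The summed level of the list was 5352 and 5889 scaled FPKM in perigonadal WAT and 547, 738 and 837 in BAT. After scaling, the shallower perigonadal library, replicate 2, had the higher sum of the pair, an order that rests on the scaling. As deposited, Scd1 had 4428 FPKM in replicate 1 and 2413 in replicate 2, and Elovl6 had 271.7 and 295.8.

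The pathway starts with citrate leaving the mitochondrion. Slc25a1, the mitochondrial citrate carrier, had 208 and 315 scaled FPKM in perigonadal WAT and 43.8, 38.5 and 41.9 in BAT, a 6.31-fold difference (log2 fold change 2.60, SE 0.22, adjusted p = 0.00277). Acly, which splits citrate into acetyl-CoA in the cytosol, had 274 and 426 against 14.7, 26.8 and 34.1, a 13.9-fold difference (log2 fold change 3.79, SE 0.36, adjusted p = 0.00408). Neither gene's groups came near each other. Acss2, which makes acetyl-CoA from acetate, had 36.6 and 40.9 against 6.51, 6.61 and 8.59 (5.35-fold, adjusted p = 0.00282). Acaca, the acetyl-CoA carboxylase of the committed step, had 189 and 247 against 20.8, 34.0 and 38.8 (6.99-fold, log2 fold change 2.80, SE 0.28, adjusted p = 0.00476). The calls of Slc25a1, Acly, Acss2 and Acaca held without each library in turn. Acacb, the carboxylase isoform tied to the mitochondrial surface, differed less, with 80.9 and 105 against 34.4, 47.0 and 42.0 (adjusted p = 0.0265), and its call was lost in 4 of the 5 leave-outs, with an adjusted p of up to 0.0869 without perigonadal replicate 2.

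Fasn, fatty acid synthase, on chr11:120667272-120685861 of mm9, had 734 and 825 scaled FPKM in perigonadal WAT and 35.4, 83.3 and 88.5 in BAT (11.3-fold, log2 fold change 3.58, SE 0.38, adjusted p = 0.00581). Me1, the malic enzyme that supplies NADPH for this synthesis, had 286 and 384 against 46.2, 49.3 and 49.96 (6.91-fold, log2 fold change 2.75, SE 0.19, adjusted p = 0.00185). BAT libraries were nearly equal for Me1, while Fasn in BAT replicate 1 was under the other BAT libraries. Scd1, the main stearoyl-CoA desaturase of mouse fat, on chr19:44468940-44482199, had 2699 and 2288 against 63.8, 128 and 135. This was a 22.9-fold difference (log2 fold change 4.58, SE 0.33, adjusted p = 0.00185), and on FPKM as deposited the log2 fold change was 5.23 (adjusted p = 3.98e-07). Scd1 was thereby among the most abundant messages of the perigonadal pulldown, above Ucp1, whereas in BAT it was far under Ucp1. Scd2, its paralog, had 65.3 and 92.0 against 2.16, 1.71 and 6.57 (22.6-fold, adjusted p = 0.00476). The calls of Fasn, Me1, Scd1 and Scd2 held without each library, with the adjusted p of Scd1 at most 0.0218.

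Elovl6, which elongates palmitate, had 166 and 280 scaled FPKM against 83.5, 85.8 and 108 (log2 fold change 1.22, adjusted p = 0.0392), and its adjusted p was 0.0659 with the length trend removed and up to 0.116 with 1 library left out (BAT replicate 1). The desaturase Fads2 had 2.38 and 2.59 in perigonadal WAT and was at 0 in BAT, at least 5.41-fold higher when the 3 BAT libraries together are given 3 fragments (adjusted p = 0.0143), and it was not tested with a perigonadal library left out. Pnpla3, a lipid droplet protein induced by carbohydrate feeding, had 35.8 and 27.4 against 5.95, 4.47 and 7.34 (adjusted p = 0.00581; 0.0535 without perigonadal replicate 1). Among the regulators, the groups of each gene stood apart but the calls were weaker. Thrsp, the thyroid hormone responsive spot 14 protein, had 496 and 750 against 157, 197 and 230 (3.20-fold, adjusted p = 0.0171; 0.0629 without BAT replicate 1). Mlxipl, which encodes the carbohydrate response factor ChREBP, had 18.0 and 16.7 against 4.90, 6.12 and 6.53 (log2 fold change 1.43, adjusted p = 0.0124; 0.0918 without perigonadal replicate 1). Srebf1, which encodes the lipogenic factor SREBP1, had 28.2 and 27.5 against 7.19, 13.2 and 14.6, a log2 fold change of 1.24 that was not called (adjusted p = 0.0525) but was called as deposited (adjusted p = 0.00290). The other members not called were Elovl5 (adjusted p = 0.123) and Mid1ip1 (adjusted p = 0.203).

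**Figure D3:**
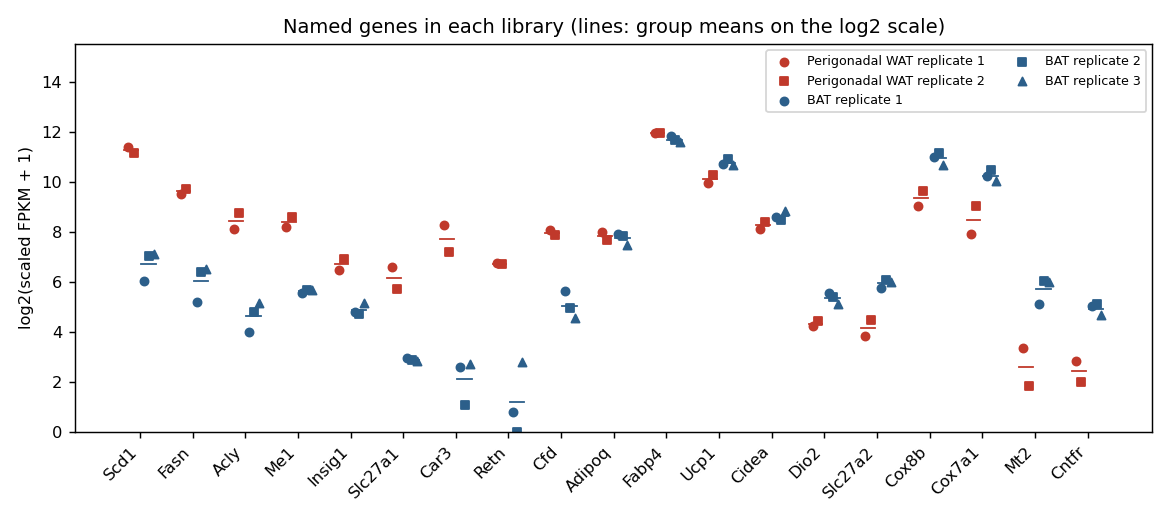
log2(scaled FPKM + 1) of 19 genes in each of the 5 libraries, red for perigonadal WAT and blue for BAT, with marker shape giving the replicate and lines the group means on this scale. Lipogenic and white fat genes on the left are higher in both perigonadal libraries, Adipoq, Fabp4 and Cidea lie close together, and Slc27a2, Cox8b, Mt2 and Cntfr are lower.

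Promoter sequences are shown for 6 called lipogenic genes because 15 of 18 members of the list differed in the same direction. They were picked after the matches were seen, 5 windows with a CCAAT box and that of Acly without one. Promoters came from RefSeq on GRCm38.p6, not the build of the expression files, as the 250 bases before a gene's start. Of the 15 called genes, 12 had an entry, with 14 windows. The letters CCAAT, the box bound by NF-Y, were found on either strand in 8 of the 14 windows, from 8 of the 12 genes, and in 33.8% of the 32851 windows of this length. The E-box CACGTG was in 2 of the 14 windows and in 6.0% of all windows. TCACNCCAC, a sterol response element, was in 1 of the 14 and in 1.1% of all windows, and the GC box GGGCGG in 7 and in 32.7%. Matches may overlap, are letters only and are no evidence of binding. Capitals mark the CCAAT box, the E-box or the sterol element on either strand, each sequence reads 5′ to 3′ toward the gene, and GC boxes are not in capitals.
Fasn: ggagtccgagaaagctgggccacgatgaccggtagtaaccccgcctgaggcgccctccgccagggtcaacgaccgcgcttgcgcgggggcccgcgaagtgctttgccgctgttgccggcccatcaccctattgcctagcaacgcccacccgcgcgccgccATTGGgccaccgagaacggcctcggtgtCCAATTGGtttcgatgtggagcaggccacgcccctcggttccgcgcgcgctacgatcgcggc
Slc25a1: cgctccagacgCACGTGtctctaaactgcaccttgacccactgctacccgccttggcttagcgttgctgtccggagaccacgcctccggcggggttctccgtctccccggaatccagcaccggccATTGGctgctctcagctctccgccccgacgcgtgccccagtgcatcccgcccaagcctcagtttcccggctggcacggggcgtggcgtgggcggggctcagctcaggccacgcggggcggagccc
Acss2: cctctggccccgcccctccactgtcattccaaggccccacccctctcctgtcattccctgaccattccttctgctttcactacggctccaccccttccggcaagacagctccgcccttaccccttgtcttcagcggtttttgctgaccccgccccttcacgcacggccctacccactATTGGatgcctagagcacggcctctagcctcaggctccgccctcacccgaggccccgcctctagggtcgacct
Thrsp: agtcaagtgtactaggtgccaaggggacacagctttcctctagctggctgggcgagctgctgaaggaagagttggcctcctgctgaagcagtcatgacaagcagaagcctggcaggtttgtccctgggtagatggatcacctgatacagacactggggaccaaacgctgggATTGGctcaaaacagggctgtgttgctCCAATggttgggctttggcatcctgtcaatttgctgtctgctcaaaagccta
Pnpla3: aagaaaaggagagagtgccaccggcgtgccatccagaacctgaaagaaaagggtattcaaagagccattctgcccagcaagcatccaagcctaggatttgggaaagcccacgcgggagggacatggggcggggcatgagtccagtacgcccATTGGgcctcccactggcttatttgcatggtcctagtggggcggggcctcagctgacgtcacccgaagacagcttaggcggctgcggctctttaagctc
Acly: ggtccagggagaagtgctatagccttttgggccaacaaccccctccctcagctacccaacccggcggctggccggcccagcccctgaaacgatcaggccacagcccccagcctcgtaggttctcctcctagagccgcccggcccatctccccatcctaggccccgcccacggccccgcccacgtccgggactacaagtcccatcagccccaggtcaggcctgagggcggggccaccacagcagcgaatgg
These windows lie at chr11:120824548-120824797 (minus strand) for Fasn, chr16:17928220-17928469 (minus strand) for Slc25a1, chr2:155517793-155518042 (plus strand) for Acss2, chr7:97417551-97417800 (minus strand) for Thrsp, chr11:100528001-100528250 (minus strand) for Acly and chr15:84167566-84167815 (plus strand) for Pnpla3. The Fasn window held 3 CCAAT matches, of which 2 overlap on opposite strands, and the Thrsp window held 2. The windows of Slc25a1, Acss2 and Pnpla3 held 1 each, and that of Slc25a1 also held the E-box at its distal end. The Acly window held no match to these 3 motifs. GC boxes numbered 4 in Slc25a1, 4 in Acss2, 4 in Acly and 2 in Pnpla3 and were missing from the Fasn and Thrsp windows.

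Sterol synthesis differed in the same direction with smaller folds. Of 25 genes, 23 were tested, 10 were called higher and none lower, with a median log2 fold change of 1.12. The count was 17 as deposited, 9 with the length trend removed, and 4 without either perigonadal library. Insig1, the sterol sensor that holds back SREBP processing, had 88.0 and 119 scaled FPKM in perigonadal WAT and 26.4, 25.4 and 34.3 in BAT (3.61-fold, log2 fold change 1.81, SE 0.22, adjusted p = 0.00806). Idi1, the isomerase of isoprenoid units, differed 4.71-fold (adjusted p = 0.00581), and the calls of Insig1 and Idi1 held in every leave-out. Fdps, farnesyl diphosphate synthase, had 29.5 and 34.0 against 11.3, 7.13 and 11.2 (adjusted p = 0.0142; 0.0786 without perigonadal replicate 1). Pmvk, phosphomevalonate kinase, had 23.2 and 25.9 against 9.99, 7.89 and 11.8 (adjusted p = 0.0228; 0.106 without perigonadal replicate 1). Sc5d, a late sterol desaturase, had 73.5 and 106 against 34.5, 35.6 and 33.5 (adjusted p = 0.0162; 0.0581 without BAT replicate 1). Lss, Cyp51, Nsdhl and Hsd17b7, of the steps after squalene, were also called higher, with an adjusted p of up to 0.0616, 0.0521, 0.179 and 0.166 when a perigonadal library was left out. Hmgcs1 was listed at 0 in all 5 libraries.

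Single genes of related mitochondrial and NADPH steps were called higher. Slc25a10, the mitochondrial dicarboxylate carrier, had 15.9 and 13.4 scaled FPKM in perigonadal WAT and 0.321, 0.579 and 0.442 in BAT, a 32.7-fold difference (log2 fold change 3.43, SE 0.22, adjusted p = 0.00169). It passed the filter only through the perigonadal libraries. Pcx, pyruvate carboxylase, had 86.1 and 91.1 against 30.7, 33.9 and 30.6 (2.79-fold, log2 fold change 1.45, SE 0.16, adjusted p = 0.00605), and its call held in every leave-out. In the NADPH and pentose phosphate list 2 of 9 genes were called higher, Me1 and Tkt. Tkt, transketolase, had 251 and 405 against 154, 157 and 152 (adjusted p = 0.0453), and its adjusted p reached 0.123 without BAT replicate 1.

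Glucose use and triglyceride assembly gave single calls, to be read against the 5.44% called over all tested genes (2.24% higher). In glycolysis 1 of 18 tested genes was called, Hk2, the insulin-regulated hexokinase, with 29.7 and 44.6 scaled FPKM in perigonadal WAT and 13.9, 11.8 and 17.1 in BAT (adjusted p = 0.0291; 0.105 without perigonadal replicate 2). The median of the list was 0.42, and 11 members were called as deposited. For Gapdh the log2 fold change was 0.57 (adjusted p = 0.289) and for Aldoa 0.51 (adjusted p = 0.255). In the pyruvate dehydrogenase list Pdk1, a kinase that switches the complex off, was the 1 call of 13, with 15.6 and 21.7 against 3.05, 5.84 and 4.33 (adjusted p = 0.0142; 0.0627 without perigonadal replicate 1). In triglyceride synthesis, whose list also holds Pcx, Pcx was the 1 call of 16 tested genes, and the median was 0.09. As deposited, 6 members of this list were called higher. Agpat2 and Gpd1, enzymes of the glycerol backbone, differed by 0.12 (adjusted p = 0.807) and 0.19 (adjusted p = 0.726) on the log2 scale. The summed level of triglyceride genes was 2016 and 2353 in perigonadal WAT and 1935 to 2322 in BAT, so the groups overlapped where those of lipogenesis did not.

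Genes of fatty acid uptake differed between family members in both directions, with 2 of 17 called higher and 2 lower. Slc27a1, a fatty acid transport protein also used as a beige marker, had 95.6 and 51.2 scaled FPKM in perigonadal WAT and 6.75, 6.22 and 6.15 in BAT (11.5-fold, log2 fold change 3.27, SE 0.27, adjusted p = 0.00277), and the call held in every leave-out. Slc27a2, the very long-chain acyl-CoA synthetase of the same family, had 13.1 and 20.9 against 53.2, 65.6 and 62.9. It was 3.56-fold lower (log2 fold change -1.80, SE 0.23, adjusted p = 0.0107; 0.0585 without perigonadal replicate 1). Fabp5 had 94.0 and 128 against 5.35, 10.5 and 19.1 (9.54-fold, log2 fold change 3.29, SE 0.44, adjusted p = 0.0124; 0.0616 without perigonadal replicate 1). Fabp3, the binding protein of muscle and brown fat, had 299 and 347 against 629, 566 and 869 (log2 fold change -1.07, adjusted p = 0.0459), which was 0.275 with the length trend removed and up to 0.161 with a library left out (perigonadal replicate 1). So of these binding proteins Fabp5 was higher, Fabp3 lower, and Fabp4 was not called (log2 fold change 0.25, 95% interval -0.28 to 0.77, adjusted p = 0.585; as deposited 0.90, adjusted p = 0.00381).

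Of 14 tested lipid droplet genes 2 were called higher. Cidec, which fuses droplets into large ones, had 247 and 224 scaled FPKM in perigonadal WAT against 97.4, 130 and 129 in BAT (1.98-fold, adjusted p = 0.0344). Plin4, a perilipin of white adipocytes, had 68.6 and 21.2 against 4.57, 6.90 and 6.25 (7.60-fold, adjusted p = 0.0245), and perigonadal replicate 1 stood well above replicate 2. Cidec's call was lost in every leave-out, with an adjusted p of up to 0.143, and that of Plin4 in 3 of 5, with one of up to 0.0793. Cidea, the paralog of Cidec typical of brown fat, had 272 and 337 against 379.5, 352 and 457 and was not called (log2 fold change -0.38, adjusted p = 0.333).

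Of 18 white adipocyte markers 9 were tested and 5 called higher. Only 4 of the 18 reached a mean of 1 in BAT, so most members could pass the filter only by being high in perigonadal WAT, and the count says nothing about the list as a whole. Car3, carbonic anhydrase 3, on chr3:14863538-14872373 of mm9, had 306 and 144 scaled FPKM against 4.98, 1.08 and 5.51. This 58.3-fold difference (log2 fold change 5.61, SE 0.53, adjusted p = 0.00408) held in every leave-out. Retn, which encodes the adipokine resistin, on chr8:3655770-3659818, had 106 and 103 against 0.737, 0 and 5.96 (46.8-fold, log2 fold change 5.52, SE 0.70, adjusted p = 0.0107; 0.0650 without perigonadal replicate 1). Lep, which encodes leptin, was low throughout, with 3.45 and 1.77 against 0.228, 0 and 0 (adjusted p = 0.0281), and Psat1, a serine synthesis enzyme, had 6.69 and 4.46 against 0.364, 0 and 0.381 (adjusted p = 0.00838). Slc7a10, an amino acid transporter of white fat, had 15.7 and 3.38 against 0.350, 0 and 0 (adjusted p = 0.0253). Lep, Psat1 and Slc7a10 could not be tested without either perigonadal library. Without a BAT library, Lep had an adjusted p of up to 0.0655 and Slc7a10 of up to 0.0719.

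Some genes of other secreted proteins of adipocytes also differed between the depots. Cfd, adipsin, had 265 and 233 scaled FPKM in perigonadal WAT and 48.8, 29.7 and 22.5 in BAT (7.38-fold, log2 fold change 2.92, SE 0.31, adjusted p = 0.00570), and Rbp4, retinol binding protein 4, had 15.9 and 11.9 against 2.49, 0.583 and 2.77 (adjusted p = 0.0201; 0.117 without perigonadal replicate 1). Adiponectin did not follow: Adipoq had 254 and 202 against 239, 227 and 178, with overlapping groups and a log2 fold change of 0.09 (95% interval -0.40 to 0.58, adjusted p = 0.847). Of 25 tested genes of secreted factors 7 were called higher and 2 lower, against 2.24% and 3.20% over all tested genes. Of the 7 higher ones, 3 could not be tested without perigonadal replicate 1, and 3 without replicate 2. The lower ones were Gpx3, plasma glutathione peroxidase, with 93.5 and 97.0 against 204, 466 and 287 (adjusted p = 0.0334), and Apoc1, an apolipoprotein, with 89.0 and 202 against 714, 501 and 604 (adjusted p = 0.0199). Both calls were lost without some libraries, with an adjusted p of up to 0.149 for Gpx3 (without perigonadal replicate 1) and 0.0672 for Apoc1 (without BAT replicate 1).

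Several of the largest folds lay outside these lists. Cyp2e1, a cytochrome P450 of ethanol and ketone metabolism, had 115 and 47.3 scaled FPKM in perigonadal WAT and 2.45, 2.14 and 1.04 in BAT (43.2-fold, log2 fold change 4.74, SE 0.39, adjusted p = 0.00277). Trf, which encodes transferrin, the iron carrier of plasma, had 59.9 and 39.1 against 2.61, 1.11 and 0.875 (32.3-fold, log2 fold change 4.35, SE 0.33, adjusted p = 0.00195). Both calls held in every leave-out, and in both genes replicate 1 was the higher perigonadal library. Cryab, a small heat shock protein, had 15.7 and 17.2 against 0.568, 0.551 and 1.15 (21.8-fold, adjusted p = 0.00185). Abcd2, a peroxisomal importer of very long-chain fatty acids, had 13.8 and 7.42 against 0.171, 0.176 and 0.540 (adjusted p = 0.00476). Gsta3, a glutathione transferase with close paralogs, had 7.89 and 4.53 and was at 0 in BAT, at least 12.9-fold higher (adjusted p = 0.00530). Cryab, Abcd2 and Gsta3 passed the filter only through the perigonadal libraries and so could not be tested with 1 of them left out.

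The thermogenic core was high in both depots, with some members lower in perigonadal cells. Ucp1, on chr8:85814247-85822355 of mm9, had 972 and 1216 scaled FPKM in perigonadal WAT and 1653, 1897 and 1608 in BAT. The groups did not overlap, and the log2 fold change of -0.66 (95% interval -1.17 to -0.15) was not called (adjusted p = 0.134). As deposited, Ucp1 had 1593 and 1282 FPKM against 1410, 1575 and 1313, a log2 fold change of 0.00 (adjusted p = 0.997), so its direction rests on the scaling. Without perigonadal replicate 2, Ucp1 was called lower (log2 fold change -0.78, adjusted p = 0.0408). Of 22 tested members of the list 6 were called lower and none higher, with a median log2 fold change of -0.38 after scaling and 0.25 as deposited, where 3 were called lower and 2 higher. Dio2, the deiodinase that activates thyroid hormone in brown fat, had 17.5 and 20.4 against 45.2, 40.7 and 33.5 (log2 fold change -1.03, adjusted p = 0.0304), which was 0.289 as deposited and up to 0.181 with 1 library left out (perigonadal replicate 1). Esrra, which encodes the mitochondrial regulator ERR alpha, had 21.0 and 26.6 against 44.7, 50.4 and 41.8 (log2 fold change -0.92, adjusted p = 0.0361), a call lost in every leave-out, with an adjusted p of up to 0.229. Elovl3, a cold-induced elongase of brown fat, overlapped, with 38.0 and 78.7 against 71.5, 52.7 and 65.9 (adjusted p = 0.770).

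Regulators and depot markers of brown fat were mostly not distinguishable at this depth. Ppargc1a, the coactivator PGC-1 alpha, had 9.34 and 5.08 scaled FPKM against 5.78, 15.9 and 8.65 (adjusted p = 0.639), and Pparg, the master regulator of adipocytes, a log2 fold change of -0.32 (adjusted p = 0.482). Prdm16, a determinant of brown fate, was at 0.495 and 0.391 in perigonadal WAT and 0.560, 1.14 and 0.951 in BAT and was not tested. Of 17 tested regulators 1 was called, Esrra. The classical brown markers gave 0 calls by limma among 6 tested genes (2 at an unadjusted p under 0.05), with log2 fold changes of 0.54 for Pdk4 (adjusted p = 0.325) and 0.13 for Acot2 (adjusted p = 0.820). Zic1, a gene typical of BAT, was at 0.0571 and 0 against 0.511, 0.291 and 0.145, and Lhx8 and Tbx1 were at 0 in all 5 libraries. The beige marker Tmem26 was at 0.0639 and 0 in perigonadal WAT and at 0 in BAT, and of 5 tested beige-selective genes Slc27a1 was the 1 call. The amino acid transporter Slc36a2, from that list, had 65.2 and 63.0 against 47.6, 53.1 and 53.3 (adjusted p = 0.306). In beta-adrenergic and cAMP signalling 0 of 23 tested genes were called by limma (6 at an unadjusted p under 0.05), against 6 called higher as deposited. Adrb3, the adrenergic receptor of adipocytes, had 47.8 and 21.99 against 12.6, 14.1 and 13.7 (log2 fold change 1.21, adjusted p = 0.0645; 0.0101 as deposited).

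Many respiratory chain transcripts were called lower in perigonadal cells. In complex I 19 of 37 genes were called lower and none higher, with a median log2 fold change of -0.98, and in complexes II to V 15 of 42 tested genes, with a median of -0.80. As deposited the medians were -0.32 and -0.14 and the lower calls 3 and 9. With the trend on transcript length and level removed, 4 and 2 were called lower. Cox8b, the cytochrome c oxidase subunit of brown fat and heart, on chr7:148084841-148086345 of mm9, had 518 and 792 scaled FPKM in perigonadal WAT and 2026, 2283 and 1632 in BAT. It was 3.02-fold lower (log2 fold change -1.61, SE 0.27, adjusted p = 0.0221; 0.00207 as deposited and 0.0388 with the length trend removed). Cox7a1, the muscle and brown fat isoform of another subunit of this enzyme, had 242 and 520 against 1189, 1398 and 1047 (log2 fold change -1.76, adjusted p = 0.0304; 0.0824 with the length trend removed). The ubiquitous subunit Cox7c had 247 and 415 against 843, 937 and 793 (log2 fold change -1.42, adjusted p = 0.0272). In complex I, Ndufa4, a subunit also assigned to cytochrome c oxidase, had 297 and 412 against 697, 658 and 717 (adjusted p = 0.0411), and Ndufb4 had 115 and 165 against 431, 369 and 350 (log2 fold change -1.47, adjusted p = 0.0152; 0.0466 with the length trend removed). In each of these genes replicate 1 was the lower perigonadal library. None of these calls held in every leave-out, and without perigonadal replicate 1 the adjusted p was 0.0544 for Cox8b, 0.0587 for Cox7a1, 0.0585 for Cox7c, 0.0995 for Ndufa4 and 0.0592 for Ndufb4. Without that library no gene of either list was called by limma, and the perigonadal group then held 1 library. Whether these lists stood lower than other transcripts of their length in that fit was not tested.

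The tricarboxylic acid cycle and fatty acid oxidation gave no calls. After scaling, 15 of 17 and 14 of 22 of their tested genes still had a log2 fold change below 0. Their median transcript lengths were 1701 and 1920 nt, against 651 nt for complex I. In the tricarboxylic acid cycle 0 of 17 genes were called by limma (6 at an unadjusted p under 0.05), and the median log2 fold change was -0.40 after scaling and 0.26 as deposited. Sucla2, a succinyl-CoA synthetase subunit, had a log2 fold change of -0.54 (adjusted p = 0.163). In fatty acid oxidation 0 of 22 tested genes were called by limma (5 at an unadjusted p under 0.05), with a median of -0.22 after scaling and 0.43 as deposited. Hadhb, of the trifunctional protein, had 727 and 833 scaled FPKM against 665, 855 and 752, and Acadm, the medium-chain dehydrogenase, a log2 fold change of -0.52 (adjusted p = 0.148).

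Ribosomal protein genes fell on the same side as the respiratory chain. Of 77 tested genes of the cytosolic ribosome 34 were called lower and none higher (median -0.80; -0.15 as deposited, with 7 called lower), and of 76 of the mitochondrial ribosome 13 were called lower (median -0.57; 0.04 as deposited, with 3 called lower). Rplp2, a stalk protein of the large subunit, had 81.7 and 113 scaled FPKM in perigonadal WAT and 355, 268 and 264 in BAT (log2 fold change -1.60, adjusted p = 0.0133; 0.0650 without perigonadal replicate 1). Mrps36, assigned to the small mitochondrial subunit, had 50.5 and 58.7 against 139, 155 and 139 (log2 fold change -1.39, adjusted p = 0.00922; 0.0535 without perigonadal replicate 1). Mrpl54, of the large mitochondrial subunit, had 11.3 and 11.2 against 37.3, 48.6 and 47.6. Its call (3.95-fold lower, log2 fold change -1.88, SE 0.19, adjusted p = 0.00476) held in every leave-out. Ribosomal protein genes have many processed copies in the genome, so single values are uncertain, and for the same reason Rpl39l, a paralog of Rpl39, is uncertain. Rpl39l also passed the filter through the BAT libraries alone, so its direction was fixed by the filter. It was at 0 in both perigonadal libraries and at 8.03, 4.05 and 9.02 in BAT, at least 12.2-fold lower (adjusted p = 0.00605; 0.0535 without perigonadal replicate 1). Rpl41, Rps28 and Rps29 were also called lower, and without perigonadal replicate 1 their adjusted p was 0.143, 0.0650 and 0.110.

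Above 300 nt, genes called lower were more often short than genes called higher. The 38 tested genes of up to 300 nt had a median log2 fold change of 0.55, with 4 called higher and 2 lower. Among 237 tested genes whose longest transcript was above 300 and up to 600 nt the median log2 fold change was -0.89, and 86 (36.29%) were called lower. The median was -0.49 above 600 up to 1000 nt, -0.14 up to 2000 nt, 0.08 up to 5000 nt and 0.24 beyond. The 682 genes of 300 to 1000 nt outside the respiratory chain and ribosome lists had a median of -0.50, with 99 (14.52%) called lower and 8 higher. Genes called lower had a median length of 757 nt, those called higher 2845 nt, and all tested genes 2602 nt. The median lengths of complex I, complexes II to V and cytosolic ribosome genes were 651, 685 and 703 nt, and that of lipogenic genes 3878 nt. When the trend of fold change on length and level was removed, an alternative chosen after the data were seen, 238 genes (2.85%) were called: 159 (1.90%) higher and 79 (0.946%) lower. Of the original calls 140 of 187 higher and 74 of 267 lower remained. The lower calls then numbered 4 in complex I (median -0.38), 2 in complexes II to V (-0.39), 5 in the cytosolic ribosome (-0.32) and 3 in the mitochondrial ribosome (-0.19). In the thermogenic core 4 remained, with a median of -0.39. The part of length in the lower values of these lists was not tested beyond this adjustment.

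**Figure D4:**
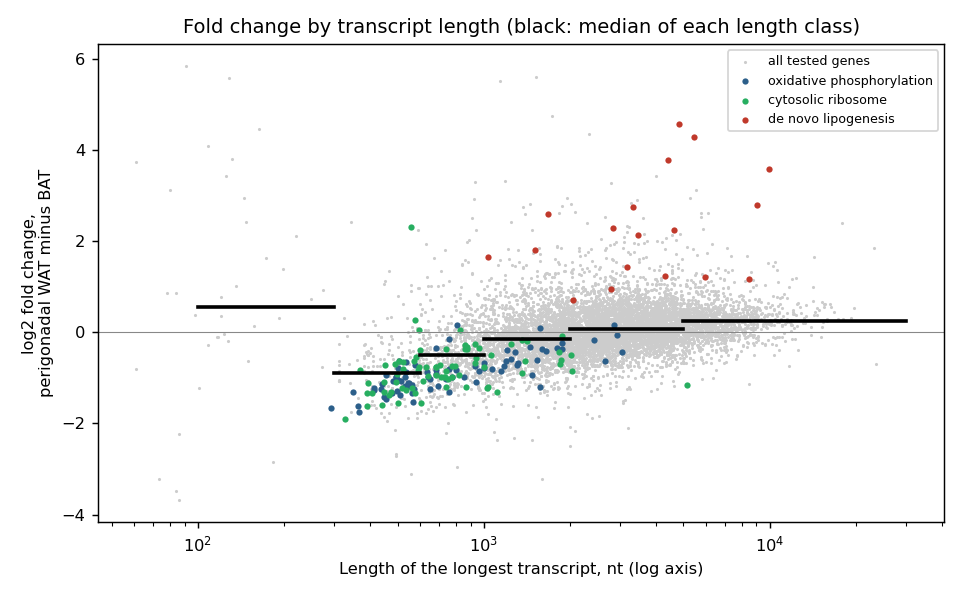
log2 fold change (perigonadal WAT minus BAT) of each tested gene against the length of its longest transcript in nt, on a log axis, with black bars for the median of each length class. Respiratory chain genes (blue) and cytosolic ribosome genes (green) lie among the short transcripts, where the class medians are -0.89 and -0.49, and lipogenic genes (red) lie above the medians of their lengths.

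**Figure D5:**
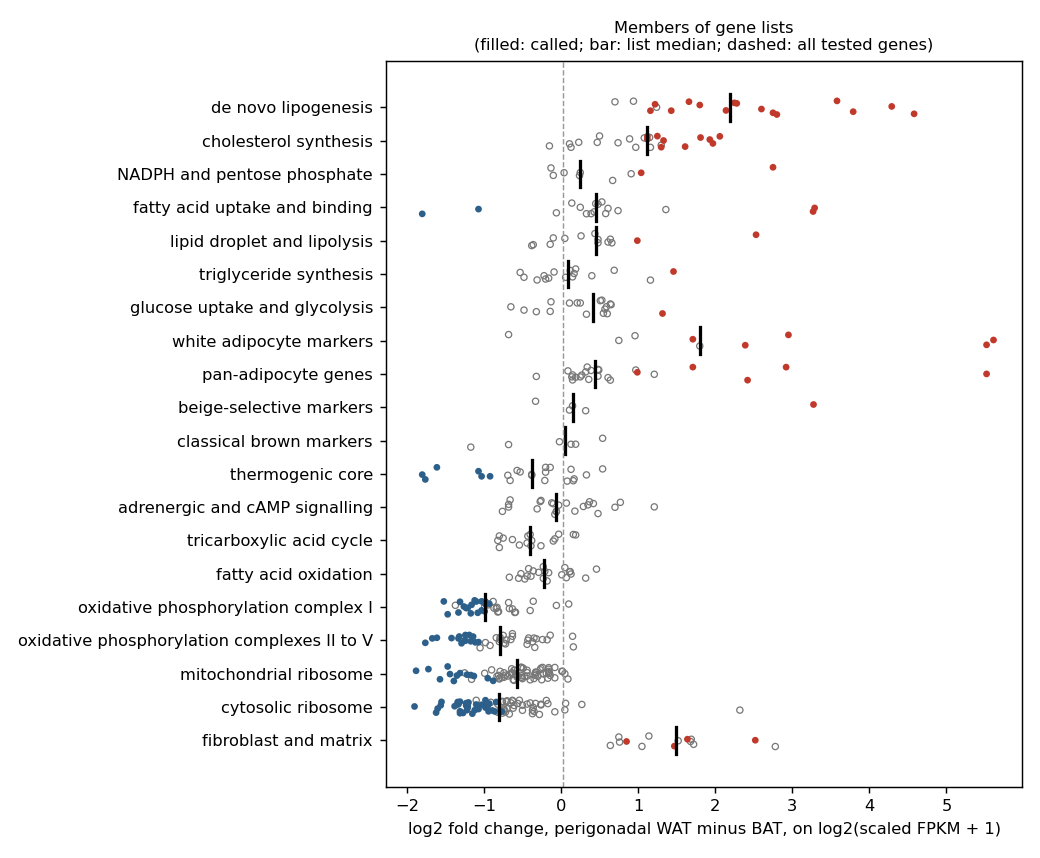
log2 fold change of every tested member of 20 gene lists, with called genes filled in red (higher) or blue (lower), a black bar at each list's median and a dashed line at the median of all tested genes, 0.02. The median of de novo lipogenesis is 2.19 and that of complex I -0.98.

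Genes outside the respiratory chain and ribosome lists were also called lower. Cntfr, the receptor of ciliary neurotrophic factor, on chr4:41604529-41644123 of mm9, had 6.19 and 3.01 scaled FPKM in perigonadal WAT and 31.3, 33.0 and 24.2 in BAT. It was 6.42-fold lower (log2 fold change -2.49, SE 0.28, adjusted p = 0.00612). Tinagl1, a matrix protein related to cathepsin B, had 1.74 and 2.31 against 12.6, 11.8 and 13.1, and was 6.18-fold lower (adjusted p = 0.00367). The calls of Cntfr and Tinagl1 held in every leave-out and as deposited. The metallothioneins, small proteins that bind zinc and copper, were lower too. Mt2 had 9.26 and 2.54 against 33.7, 63.3 and 62.5 (log2 fold change -3.11, SE 0.46, adjusted p = 0.0152), a call that held in every leave-out. Mt1 had 60.4 and 72.6 against 202, 340.1 and 221 (log2 fold change -1.89, adjusted p = 0.0124; 0.0673 without perigonadal replicate 1). These 2 were the only calls among 7 tested genes of the metallothionein and zinc list.

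Id2, an inhibitor of helix-loop-helix factors, had 2.02 and 8.62 scaled FPKM against 30.2, 24.4 and 23.7 (adjusted p = 0.0304; up to 0.0911 with a library left out, BAT replicate 1). Cib2, a calcium and integrin binding protein, had 69.8 and 103 against 494, 449 and 278 (log2 fold change -2.21, adjusted p = 0.0124; 0.0650 without perigonadal replicate 1). Ckb, brain-type creatine kinase, which takes part in creatine cycling, had 1.23 and 3.48 against 26.9, 7.57 and 17.2, with a wide spread in BAT (adjusted p = 0.0397; 0.249 without perigonadal replicate 1). Csn3, a milk casein, had 0.294 and 1.32 against 8.23, 15.8 and 26.9 and was thus a BAT signal here (log2 fold change -3.23, adjusted p = 0.0136; 0.0958 without perigonadal replicate 1). Among 22 mammary luminal and milk genes 4 were tested and Csn3 was the 1 call.

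Most markers of other cells in the depot were low, and the summed fibroblast and matrix list was higher in the perigonadal libraries. The summed level of the 24 fibroblast and matrix genes was 253 and 133 scaled FPKM in perigonadal WAT and 66.0, 57.0 and 74.8 in BAT, highest in perigonadal replicate 1. Of 14 tested members 4 were called higher, with a median of 1.49 (2 with the length trend removed), but only 6 of the 24 reached a mean of 1 in BAT. They were Sparc, with 86.6 and 82.9 against 44.9, 43.7 and 51.6 (adjusted p = 0.0341; 0.155 without perigonadal replicate 1), Gsn, with 56.9 and 15.3 against 4.98, 3.41 and 4.79 (adjusted p = 0.0304; up to 0.0808 with a library left out, BAT replicate 1), Fstl1 and Mfap5, whose adjusted p was up to 0.0938 and 0.0758 without a BAT library. The defining markers Dcn, with 17.6 and 4.54 against 0, 0 and 2.21 (adjusted p = 0.0539), Col1a1, with 13.0 and 3.00 against 1.33, 0.697 and 1.96 (adjusted p = 0.103), and Col3a1 (adjusted p = 0.0801) were not called. Pdgfra, a marker of adipose progenitors, was below 1 in all 5 libraries. The part of such cells in the higher values of Car3, Cyp2e1, Trf and other genes that peak in perigonadal replicate 1 was not tested. Nor was it tested for the lipogenic genes. After scaling, Acly and Fasn were higher in replicate 2, and Scd1 and Pnpla3 in replicate 1. As deposited, Fasn was higher in replicate 1 (1204 against 869.7 FPKM) and Acly was nearly equal (449.4 and 449.3).

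Mesothelial cells cover the perigonadal depot. Upk3b, a mesothelial marker, had 4.97 and 0.885 scaled FPKM in perigonadal WAT, Wt1 had 0.445 and 0.231, Msln 1.74 and 0, and Krt19 0.678 and 0, while all of these were at 0 in BAT. The summed mesothelial list overlapped between the groups, with 101.5 and 104.5 in perigonadal WAT and 96.7, 124.6 and 95.8 in BAT. Only 1 member reached a mean of 1 in BAT, so the BAT sum rested mainly on that gene and the overlap says little about the list. Of 20 mesothelial genes 3 were tested, 2 with a log2 fold change above 0 and 1 below. The limma test called 0 of them (2 at an unadjusted p under 0.05). Smooth muscle genes were at the edge of detection: Acta2 had 1.32 and 0.812 against 0.00154, 0.00552 and 0.736, Tagln 0.783 and 0.755 against 0 in BAT, and Myh11 0.225 and 0.281 against 0.0743, 0 and 0. Of 23 smooth muscle markers 6 were tested, and Cald1, an actin-binding protein found in many cells, was the 1 call, with 5.34 and 3.04 against 0.132, 0.261 and 0.385 (adjusted p = 0.0142), through the perigonadal libraries alone. Pericyte, endothelial and macrophage lists gave 0 calls in limma among 4, 4 and 6 tested genes (3, 2 and 1 at an unadjusted p under 0.05). Lymphocyte and ovary lists had no member that could be tested, and the summed ovary list reached at most 1.34 in a library.

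Of 39 Hox genes, patterning factors of the body axis, 6 were tested and 2 called higher. Both were listed at 0 in BAT and passed the filter through the perigonadal libraries alone, so their direction was fixed by the filter. Hoxa10, which patterns the posterior trunk and the uterus, had 3.14 and 3.14 scaled FPKM in perigonadal WAT and was at 0 in BAT, at least 12.1-fold higher (adjusted p = 0.0101). Hoxc10, another posterior gene, had 1.88 and 1.27 against 0, at least 4.33-fold higher (adjusted p = 0.0393; 0.136 with the length trend removed, and up to 0.0903 without BAT replicate 1). Hoxa5, which lies further toward the front of the cluster, overlapped, with 2.67 and 3.26 against 2.65, 1.44 and 2.80 (adjusted p = 0.599). Oxtr, the oxytocin receptor, had 3.35 and 3.43 and was at 0 in BAT, at least 21.9-fold higher (adjusted p = 0.00806). Its direction, too, was fixed by the filter. Hoxa10, Hoxc10 and Oxtr could not be tested with a perigonadal library left out. A listed 0 does not show that a gene was silent, since Hmgcs1, a sterol enzyme gene of most cells, was also listed at 0.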

How the data were processed

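RNA bound to tagged ribosomes was sequenced from 2 perigonadal WAT and 3 BAT libraries, with groups and replicate numbers taken from the tissue labels and titles. Per the submitters' processing notes, the authors used TopHat, Cufflinks and the genome build mm9; neither their versions nor options nor scaling is stated (not given in the sources used here). The deposited files held FPKM, computed by the authors per library for 28702 transcripts of 22552 genes; other attributes in the same text column were used only to estimate fragments, of which 84.8 to 91.8% of low values came out whole within 0.05. These estimates cover counting error only. Depth ranged from 349370 to 1112288 estimated fragments, which limits low genes of BAT most.

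FPKM was summed per gene, divided by median-ratio factors from 7834 genes, and tested on log2(FPKM + 1) with limma and a variance trend, two-sided, for genes reaching an FPKM of 1 in 2 or more libraries. Against a group at 0, folds are minimum values that give the group 3 fragments in all. The scripts were tested on simulated data. Members and lists were chosen with earlier results of these data known. Named genes were a set of 24 adipocyte and marker genes, the 12 most changed called genes in each direction with separate groups and a mean of at least 5 in the upper group, leaving out predicted and clone names, and 2 to 4 members per list with the highest mean among the called, or the 2 highest where fewer than 2 were called. Other names were chosen after their values were seen, and a few genes are not reported here. Alternatives were FPKM as deposited, quantile normalization, leaving out the 10 most abundant genes, pseudocounts of 0.1 and 5, no filter, a minimum of 5, short genes left out, the most abundant transcript, all 8 libraries, no variance trend, a replicate block, each library left out, and, added after seeing the data, removal of the trend on length and level. Tools were R 4.3.3, limma 3.58.1, Python 3.11.15, pandas 2.3.3, numpy 2.4.6 and matplotlib 3.10.9.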

Additional observations from a re-analysis of the deposited data

How the results depend on the processing

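Under FPKM as deposited, 905 genes were called (839 higher, 66 lower). Without a filter on low values the count was 24 (20 and 4), without a variance trend 277 (125 lower), and with the length and level trend removed 238 (79 lower). With the 10 most abundant genes left out, 360 were called higher. Leaving out 1 library gave 45 to 279 calls, 28 to 111 higher and 17 to 181 lower, with the fewest without perigonadal replicate 1. The 15 lipogenesis calls fell to 4 without a filter. The 10 cholesterol calls became 17 as deposited and 0 without a filter, and 4 to 9 with a library left out. The 5 white marker calls became 0 without a filter and 2 at a minimum FPKM of 5, and 1 to 3 with a library left out.

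The 6 lower thermogenic calls became 3 as deposited, 3 with the 10 most abundant genes left out, 0 without a filter and 3 without a variance trend, and 0 to 4 with a library left out. For complex I the 19 lower calls became 3 as deposited, 11 at a pseudocount of 0.1, 0 without a filter, 4 without a variance trend and 4 with the length trend removed, and 0 to 27 with a library left out. For complexes II to V the 15 became 9, 0 without a filter, 7 without a variance trend and 2 with the length trend removed, and 0 to 27 with a library left out. For the cytosolic ribosome the 34 became 7, 1 without a filter, 15 without a variance trend and 5 with the length trend removed, and 1 to 18 with a library left out.

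Correlations of same-numbered deviations were -0.046 and -0.027. They cannot decide whether the replicate numbers pair the libraries. The deviations of 2 perigonadal libraries mirror each other, and BAT replicate 3 has no partner. With the replicate number as a block, 238 genes were called (119 higher, 119 lower), with 3 thermogenic, 5 complex I, 5 complexes II to V and 14 cytosolic ribosome genes lower, and the Adipoq log2 fold change was -0.04.

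None of the 67 named called genes changed direction under any alternative run. Among named genes that were not called, the direction changed as deposited for Cidea (0.28), Ppargc1a (0.21), Pparg (0.32), Elovl3 (0.45), Sucla2 (0.12), Acadm (0.13), Cebpb (0.26), Atp2a2 (0.32) and Id3 (0.32). It changed under quantile normalization for Cidea (0.02) and Elovl3 (0.06), and with the 10 most abundant genes left out for Elovl3 (0.05). With 1 library left out, the log2 fold change ranged across 0 for Ppargc1a (-0.74 to 0.04), Adipoq (-0.05 to 0.30), Elovl3 (-0.67 to 0.34), Agpat2 (-0.05 to 0.34), Gpd1 (-0.10 to 0.54), Hadhb (-0.04 to 0.16) and Id3 (-0.76 to 0.25), and with the length trend removed it was 0.13 for Id3. Where no construction of an alternative shows it, the cause was not tested.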

Other observations

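Other lists held single called genes, at shares to be read against the 5.44% called over all tested genes (2.24% higher, 3.20% lower). In insulin signalling 2 of 20 tested genes were called higher in perigonadal cells, Pik3cb (log2 fold change 2.15, adjusted p = 0.00795) and Pik3r1 (1.16, adjusted p = 0.0312), catalytic and regulatory subunits of phosphoinositide 3-kinase. Pik3cb could not be tested without a perigonadal library, and Pik3r1 had an adjusted p of up to 0.143 with a library left out. In the peroxisome list 3 of 28 were called higher, among them Abcd2 and Ehhadh. Ehhadh, the bifunctional enzyme, had 76.1 and 57.0 scaled FPKM in perigonadal WAT and 22.5, 34.2 and 25.2 in BAT (adjusted p = 0.0291), a call lost without perigonadal replicate 1 (adjusted p = 0.160).

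Among 17 tested BMP and TGF-beta genes, Tgfbr2, the type II receptor, was called higher (log2 fold change 1.49, adjusted p = 0.0133; 0.0784 without perigonadal replicate 1) and Id2 lower. Of 24 antioxidant genes Gsta3 was called higher, and Gpx3 and Txn2, mitochondrial thioredoxin, lower, the latter with an adjusted p of 0.151 without perigonadal replicate 1. The limma test called 0 of 16 tested circadian clock genes (4 at an unadjusted p under 0.05), and 0 of 10 MRTF and SRF cytoskeletal targets (3 at an unadjusted p under 0.05), of which 4 were called higher as deposited. Skeletal muscle, nerve and red blood cell lists gave 0 calls by limma among 4, 3 and 3 tested genes (2, 2 and 1 at an unadjusted p under 0.05).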
